A study of Mus musculus with 16 samples.

Results

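Cells switch off growth factor and stress signalling with a set of inhibitors, and the genes of 2 such families were followed in the colon of mouse pups born by C-section or vaginally. All genes named Dusp, Spry or Spred followed by a number were taken, which gave 31 genes of the 36870 on the array. They comprised 24 Dusp genes, 4 Spry genes and 3 Spred genes, measured by 53 probes, and all 31 entered the comparison of 36711 genes. In the gene matrix that the authors deposited, 29 of the 31 were present, without Dusp21 and Spry3. MAP kinases are switched on by phosphate groups on a threonine and a tyrosine, and the dual-specificity phosphatases encoded by Dusp genes can remove both. Sprouty and Spred proteins act further up, on the path from receptor tyrosine kinases through Ras and Raf to the kinase ERK. Many of these inhibitor genes are themselves switched on by the pathway that they restrain, and in the gut this pathway carries signals for epithelial growth and repair.

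Total RNA from the colon of 16 pups was hybridized to 1-colour Agilent arrays, with 8 C-section delivered (CSD) and 8 vaginally delivered (VD) pups and 1 array per pup. The pups were outbred RjOrl:SWISS mice sampled at weaning, at 3 weeks of age. CSD litters were taken by hysterectomy late in gestation and reared by foster mothers that had themselves given birth vaginally, whereas VD litters were exchanged between vaginally delivering mothers, so that neither group was reared by its own mother. No other treatment, allele or agent is named for either group. The CSD pups came from mothers 3 and 4, with 4 pups each, and were 4 females and 4 males. The VD pups came from mother 5, with 5 pups, and mother 6, with 3 pups, and were 2 females and 6 males. Both VD females came from mother 5, and all pups of mother 6 were male. Delivery mode and litter are therefore nested, and pups of 1 litter share a mother. The p-values below come from a model of the 16 pups with a correlation of 0.02 within litters. They thus treat litter mates as nearly independent, although each group held only 2 litters. Values are log2 normalized intensities, in which a difference of 1 is a doubling. Between 58.7% and 64.9% of the probes were well above background on each array. The tissue label was set against markers. All 11 colonocyte and colon epithelium markers were well above background on every array, with Aqp8 the brightest, and Lct, Sis, Apoa4 and Gata4, of the 8 small-intestinal genes examined, were above background on 0 arrays. The other 4 were detected. Lyz1, the brightest, and Fabp6 were well above background on every array, and Apob and Defa24 on some arrays of each group.

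The comparison of CSD with VD pups asked whether delivery mode went with another level of these inhibitors at weaning. Of the 31 genes, 2 passed an adjusted p of 0.05, against 1.25% of all genes tested. Dusp11 rose and Dusp8 fell in CSD pups, against 0.706% of all genes that rose and 0.548% that fell. The other 22 Dusp genes and all 7 Sprouty and Spred genes did not pass. The median log2 difference, CSD minus VD, was -0.01 over the 31 genes and 0.00 over all genes. In whole colon, fewer cells of a type and less RNA per cell cannot be told apart. In 23 of the 31 genes the difference was under 0.1 in size. By the sex-adjusted estimate of the model, which also sets the direction counts below, the difference was above 0 in 13 genes and below it in 18, and 48.3% of all genes had a difference below 0. At an unadjusted p under 0.05 there were 6 of the 31, and 14.5% of all genes. Of these Dusp11 had the higher estimate in CSD pups, as did 7.37% of all genes at this p. Dusp8, Spry1, Dusp3, Dusp14 and Dusp2 had the lower estimate, as did 7.09% of all genes. Of the 31 genes, 24 were well above background on all 16 arrays. Dusp21, Dusp27 and Spry3 were above it on none, and Dusp9, Dusp13 and Dusp15 on some arrays of each group, and Spred3 on all but 1 array.

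**Figure D1:**
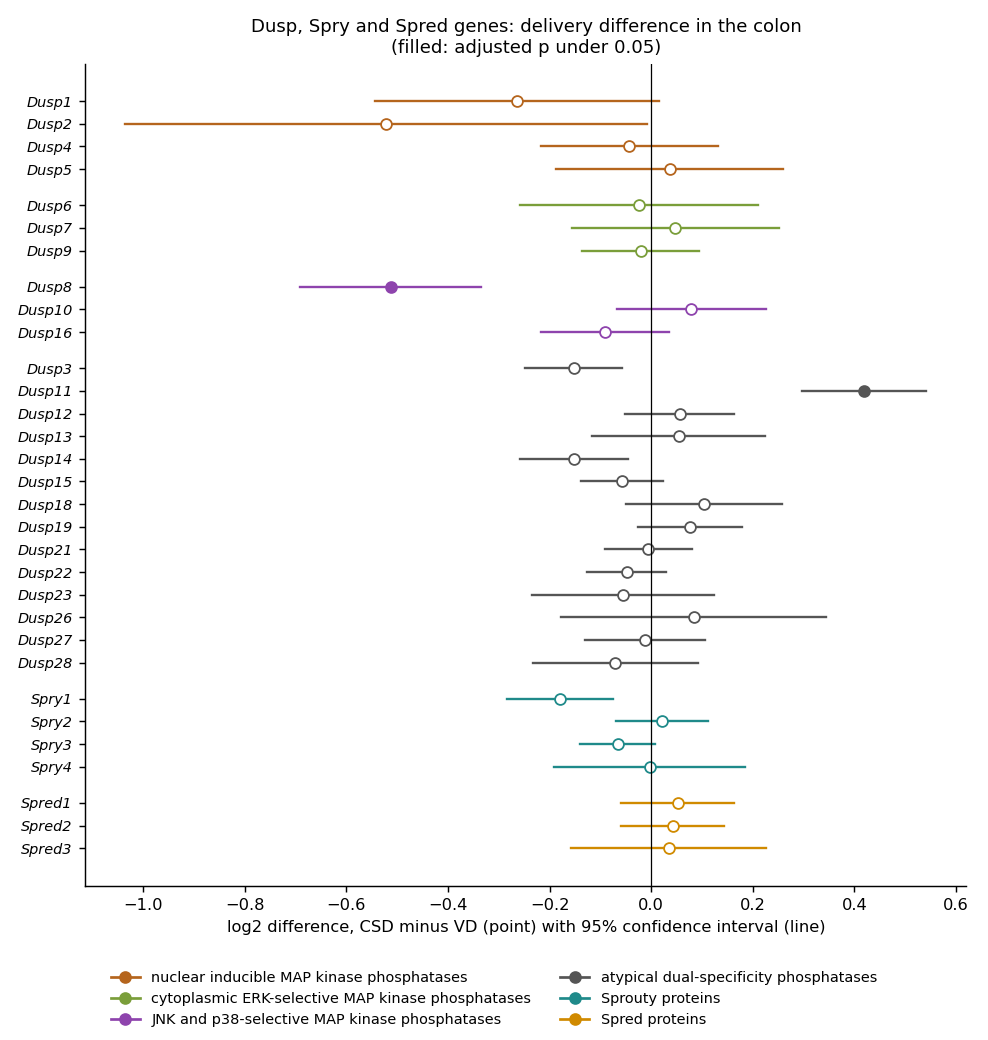
Log2 difference between CSD and VD pups (x axis, point) with its 95% confidence interval (line) for each of the 31 genes (y axis), from the limma model with 8 pups per group, coloured by class. The filled points are Dusp11 at 0.42 and Dusp8 at -0.51, and the interval of Dusp2 is the widest, from -1.03 to -0.01.

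Dusp11 encodes an atypical member of the family that acts on RNA rather than on MAP kinases, removing phosphates from the triphosphate end of RNA molecules. Because its result rests on 1 probe, the probe is shown here, in lower case from its 5′ end. It lies at chr6:85903395-85903454 on the minus strand of mm9, the build in the scanner output.
Dusp11 probe: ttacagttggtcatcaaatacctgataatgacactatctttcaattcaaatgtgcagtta
The Dusp11 level was lowest at 10.72, median 10.80 and highest at 10.95 in the 8 CSD pups. In the 8 VD pups it was lowest at 10.17, median 10.40 and highest at 10.61. The 2 groups did not overlap, which held for 0.493% of all genes and for no other of the 31. The means were 10.82 ± 0.09 (SD, n = 8) and 10.38 ± 0.14 (SD, n = 8). In the limma model the log2 difference was 0.42 with a standard error of 0.06 (adjusted p = 0.00367), a fold of 1.34. Litters of one delivery mode lay close together, with litter means of 10.83 and 10.82 for mothers 3 and 4 and of 10.35 and 10.42 for mothers 5 and 6. Such a gap between the litter means was seen in 16 of the 31 genes and in 42% of all genes. The difference was 0.42 in the deposited matrix (limma adjusted p = 0.0123). With the 4 litter means as samples it was 0.43 (limma adjusted p = 0.233). Each of the 2 slides held pups of both groups, and on slides 1 and 2 alone the difference was 0.37 and 0.47 (limma adjusted p = 0.218 and 0.150). None of the 10 genes nearest to Dusp11, 5 on each side, passed, and their differences ran from -0.10 for Nat8 to 0.07 for Fam136a.

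Dusp8 belongs with Dusp10 and Dusp16 to the phosphatases that prefer the stress-activated kinases JNK and p38 to ERK. Its level was lowest at 8.38, median 8.55 and highest at 8.74 in CSD pups. In VD pups it was lowest at 8.62, median 9.08 and highest at 9.28. Of the 8 CSD pups, 6 lay below every VD pup, and the overlap came from VD replicate 6, the lowest of its group. The means were 8.56 ± 0.12 (SD, n = 8) and 9.04 ± 0.21 (SD, n = 8). The log2 difference was -0.51 with a standard error of 0.08 (limma adjusted p = 0.00966), so the VD level was 1.43 times the CSD level. The litter means were 8.54 and 8.58 for mothers 3 and 4, and 9.10 and 8.94 for mothers 5 and 6.

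The call of Dusp8 turned on 1 spot. Of the 848 probe values of the 31 genes, 1 was left out because the scanner software marked its spot as an outlier, and it belonged to Dusp8 in CSD replicate 8. The arrays of CSD replicates 8 and 7 stood apart in marked spots, with 200 and 205, against 65 to 107 on the other arrays. Without CSD replicate 8 Dusp8 differed by -0.50 and without CSD replicate 7 by -0.53 (limma adjusted p = 0.0194 and 0.0225). In CSD replicate 8 the gene's value came from the probe A_51_P263246 alone. That probe read from 8.16 to 8.56 in the CSD pups and from 8.47 to 9.15 in the VD pups, with a difference of means of -0.51 (n = 8 per group). The other probe, A_51_P114314, read from 8.60 to 8.95 in the 7 CSD pups left and from 8.77 to 9.41 in the VD pups, a difference of -0.41. The marked spot itself read 10.21, above all pups of both groups. When it was kept, the Dusp8 value of CSD replicate 8 became 9.31, the log2 difference -0.37 and the limma adjusted p 0.169. When every probe with a marked spot was dropped, the difference was -0.54 (limma adjusted p = 0.00821). In the deposited matrix CSD replicate 8 stood at 8.96 and the other CSD pups at 8.15 to 8.57, and the difference was -0.45 (limma adjusted p = 0.117). Dusp8 also missed the threshold with litter means as samples and with males only. It did so too without the litter of mother 3, 4 or 5, at differences of -0.50, -0.52 and -0.47 (limma adjusted p = 0.0653, 0.0734 and 0.124). On slides 1 and 2 alone it was -0.58 and -0.45 (limma adjusted p = 0.199 and 0.316). Of its 10 nearest genes 7 were measured and 0 passed in limma, with 0 also at an unadjusted p under 0.05.

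**Figure D2:**
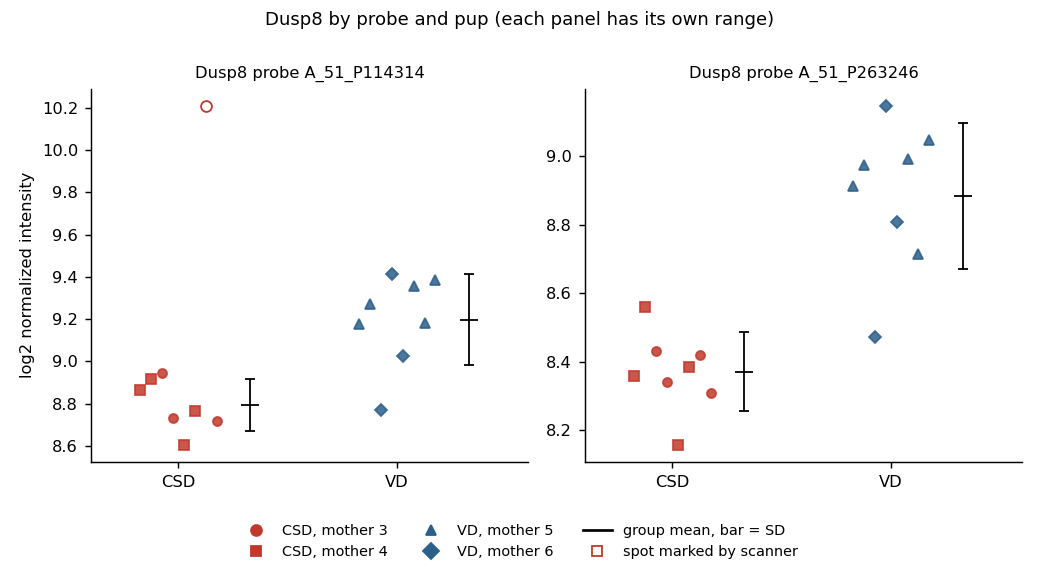
Dusp8 log2 normalized intensity (y axis) by probe and delivery mode, with 1 point per pup, the litter as the symbol and the mean with its SD beside each group. The open symbol at 10.21 is the marked spot of CSD replicate 8, which does not enter the mean beside it, and on both probes VD replicate 6 is the VD pup nearest the CSD pups.

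The other phosphatases of JNK and p38 did not pass. Dusp10 differed by 0.08 and Dusp16 by -0.09, with 95% confidence intervals of -0.07 to 0.23 and -0.22 to 0.03. Dusp8 is known for its expression in nerve cells, so the enteric neuron markers were set beside it. Of these 12 markers, 9 had a higher and 3 a lower estimate in CSD pups, and 0 passed in limma, with 1 at an unadjusted p under 0.05. Vip was the brightest, and all 12 were well above background on every array. Their summed intensity was lowest at 5158, median 6732 and highest at 7437 in CSD pups, and lowest at 6056, median 7019 and highest at 7695 in VD pups. Smooth muscle markers had a lower estimate in 7 of 8 cases, with 0 passing, 1 at an unadjusted p under 0.05 and Tagln the brightest. Their summed intensity had a median of 230646 in CSD and 254402 in VD pups, and its part in the Dusp8 difference was not tested. In 4 other lists besides the T cell list below all estimates lay on the same side, with 0 genes passing in limma. All 11 colonocyte markers had a higher estimate in CSD pups (median difference 0.17, 2 at an unadjusted p under 0.05), as had all 6 mast cell markers (median 0.28, 2 at that p), led by Cma1. All 6 endothelial markers, led by Plvap, had a lower estimate (median -0.16, 3 at that p), as had all 5 adipocyte markers, led by Cfd (median -0.11, 1 at that p). The summed intensity of the colonocyte list had a median of 310409 in CSD and 284576 in VD pups, and that of the endothelial list 4366 and 5253. For mast cells it was 1660 and 1281, and for adipocytes 12454 and 15737. The part of these cell types in the Dusp11 and Dusp8 differences was not tested either.

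The sequence before the Dusp8 start is shown because it holds a motif that few promoters hold. The letters TGACGTCA, the cyclic AMP response element, read the same on both strands. They occurred in the 250 bases before the start in 1.55% of 32851 RefSeq promoters of GRCm38.p6. Of the 31 genes, 23 had such an entry, and 2 of the 23 held the letters, Dusp8 with 2 copies and Dusp1 with 1. Dusp11, the other gene that passed, had none. In the sequences, 5′ to 3′ and ending at the base before the start, capitals mark the element. All are on the minus strand, at chr7:142095285-142095534, chr17:26508473-26508722 and chr6:85961668-85961917.
Dusp8 promoter: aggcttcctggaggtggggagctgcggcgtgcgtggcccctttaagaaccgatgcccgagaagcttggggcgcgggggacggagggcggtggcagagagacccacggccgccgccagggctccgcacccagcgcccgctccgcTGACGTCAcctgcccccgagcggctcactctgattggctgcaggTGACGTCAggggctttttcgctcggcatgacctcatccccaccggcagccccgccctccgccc
Dusp1 promoter: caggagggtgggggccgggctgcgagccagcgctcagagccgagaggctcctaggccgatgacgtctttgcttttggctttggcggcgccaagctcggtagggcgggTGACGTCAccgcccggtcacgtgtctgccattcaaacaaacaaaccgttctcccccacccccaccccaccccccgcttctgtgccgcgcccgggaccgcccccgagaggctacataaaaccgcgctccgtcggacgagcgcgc
Dusp11 promoter: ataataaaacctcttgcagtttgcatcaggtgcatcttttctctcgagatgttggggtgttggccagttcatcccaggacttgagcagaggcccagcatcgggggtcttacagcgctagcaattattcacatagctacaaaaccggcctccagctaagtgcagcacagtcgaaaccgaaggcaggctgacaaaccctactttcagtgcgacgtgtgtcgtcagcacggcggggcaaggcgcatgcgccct
The copies of Dusp8 began 107 and 63 bases before the start, and that of Dusp1 began 143 bases before it. The letters CACGTG, the E-box, which overlap no copy of the element, were in 6.02% of all promoters and in those of Dusp1 and Dusp2. The CArG box, also searched on both strands, was in 1.47% of all and in that of Dusp5. A match is only a match of letters, and no binding was measured here.

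The nuclear phosphatases Dusp1, Dusp2, Dusp4 and Dusp5 are rapidly induced by growth factors and stress. None of the 4 passed, and 3 had a lower estimate in CSD pups. Dusp2, known from activated lymphocytes, was lowest at 9.12, median 9.94 and highest at 10.67 in CSD pups. In VD pups it was lowest at 9.93, median 10.57 and highest at 11.15. The groups overlapped widely, with 4 of 8 CSD pups below all VD pups, and Dusp2 varied more within a litter than any other of the 31 genes, with an SD of 0.49 against a median of 0.12. Its log2 difference was -0.52 with a standard error of 0.24 (limma adjusted p = 0.335). Without CSD replicate 8, the lowest pup, it was -0.34 (limma adjusted p = 0.529), and without the litter of mother 5 it was -0.29 (limma adjusted p = 0.797). Dusp1, which acts on p38, JNK and ERK, ranged from 10.87 to 11.50 in CSD and from 11.18 to 12.07 in VD pups. Its difference was -0.26 with a 95% confidence interval of -0.54 to 0.01. Its litters did not part by delivery mode, since the mean of mother 6, at 11.33, lay below that of mother 4, at 11.40. Dusp4 and Dusp5 differed by -0.04 and 0.04.

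Lymphocyte markers were set beside Dusp2. Of 6 T cell markers all 6 had a lower estimate in CSD pups, and of 7 B and plasma cell markers 6 did. In limma 0 of the 13 passed, with 1 and 3 at an unadjusted p under 0.05. The summed T cell intensity was lowest at 1330, median 1673 and highest at 2287 in CSD pups, and lowest at 1700, median 2132 and highest at 4429 in VD pups. Some extremes fell on the same pup and others did not. Among CSD pups replicate 8 was lowest and replicate 6 highest for both the T cell sum and Dusp2. VD replicate 6 was the highest VD pup for the T cell sum and for Dusp2, whereas the lowest were VD replicate 5 for the sum and VD replicate 7 for Dusp2. The brightest T cell marker was Cd3d, and Cd8a was the only one not well above background on all arrays. The B and plasma cell sum, led by Jchain, had a median of 19901 in CSD and 39091 in VD pups, and its lowest CSD pup, replicate 3, and highest VD pup, replicate 4, were not those of Dusp2. The part of these cells in the Dusp2 values was not tested.

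The cytoplasmic phosphatases Dusp6, Dusp7 and Dusp9 are selective for ERK, and Dusp6 is a classical feedback target of the pathway. Their differences were -0.02, 0.05 and -0.02. For Dusp6 the 95% confidence interval ran from -0.26 to 0.21. Dusp6 ranged from 11.92 to 12.57 in CSD and from 11.62 to 12.40 in VD pups, and the groups overlapped. Dusp9 was well above background on 5 arrays of each group, and its values on the other arrays, which also enter its difference, lay near background.

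Among the 14 atypical phosphatases, which lack the kinase-binding domain of the others, Dusp11 was the 1 that passed. Dusp3, which acts on ERK and JNK, was lowest at 12.20, median 12.35 and highest at 12.49 in CSD pups. In VD pups it was lowest at 12.44, median 12.50 and highest at 12.58. Here 6 of 8 CSD pups lay below all VD pups and the litter means stood apart, but the difference of -0.15 did not pass (limma adjusted p = 0.108). In 1 of 38 alternatives, without sex in the model, Dusp3 passed (limma adjusted p = 0.0464). Dusp14, described as a brake on T cell receptor signalling, was lowest at 8.38, median 8.61 and highest at 8.70 in CSD pups. In VD pups it was lowest at 8.64, median 8.71 and highest at 8.88. Again 6 CSD pups lay below all VD pups, and the difference was -0.15 (limma adjusted p = 0.151). The 3 probes of Dusp14 did not give the same size, with differences of -0.21, -0.18 and -0.06, and on the first of them no CSD pup reached the VD pups. Of the other 11, Dusp18 differed by 0.10 and the rest by less. The Dusp18 value is the average of 2 probes. Its probe with a difference of 0.18 was well above background on 2 arrays of each group, whereas its probe above background on all arrays differed by 0.00. The 11 include Dusp22, which acts in JNK and T cell receptor signalling, at -0.05, and Dusp26, which was described in nerve tissue and tumours, at 0.08. For Dusp22 too the value averages 2 probes. The probe well above background on all arrays differed by -0.11, and the probe above background on 0 arrays by 0.02. In 4 of the 14 the level was not well above background on all arrays, namely for Dusp13, Dusp15, Dusp21 and Dusp27, and no change is claimed for these.

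**Figure D3:**
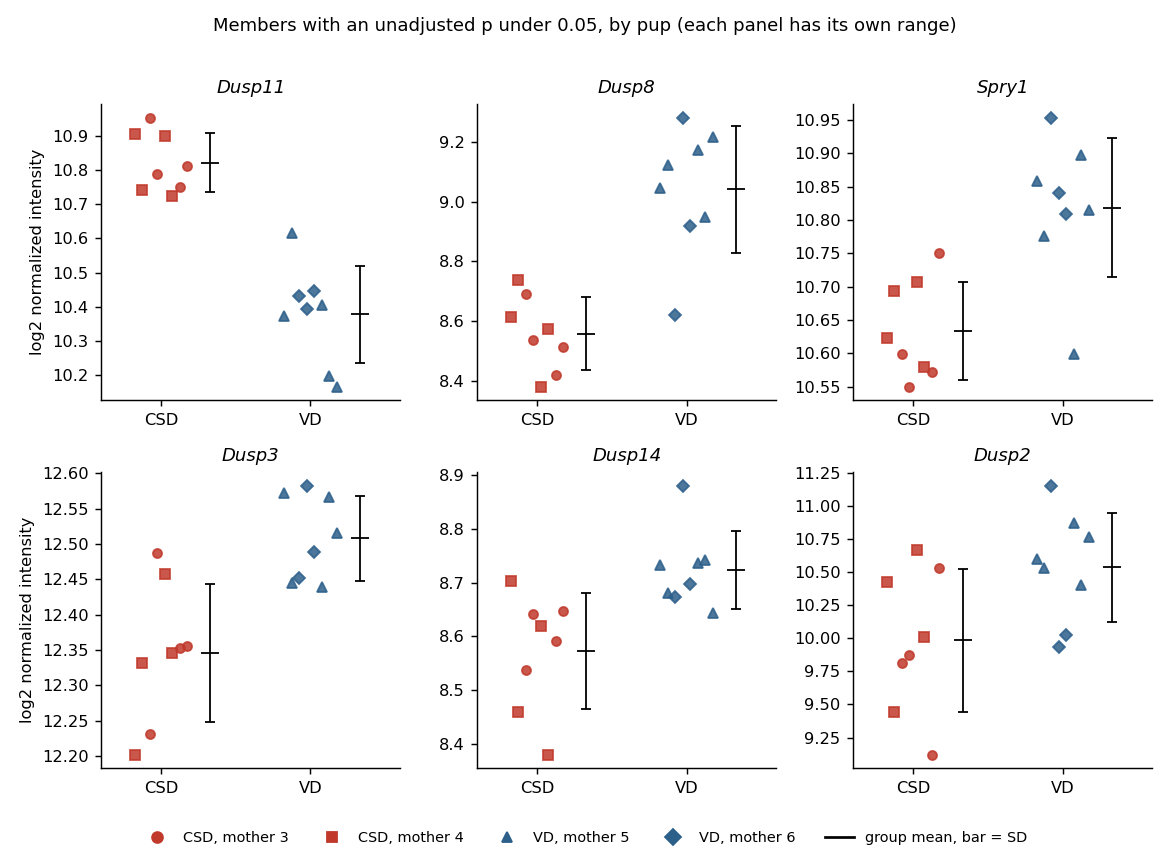
Log2 normalized intensity (y axis) of the 6 genes with an unadjusted p under 0.05, by delivery mode, with 1 point per pup, the litter as the symbol and the mean with its SD beside each group. The 8 CSD pups of Dusp11 lie at 10.72 and above and the VD pups at 10.61 and below, whereas the groups overlap for the other 5 genes.

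The Sprouty and Spred genes gave no call. Spry1, a feedback inhibitor of growth factor signalling, was lowest at 10.55, median 10.61 and highest at 10.75 in CSD pups. In VD pups it was lowest at 10.60, median 10.83 and highest at 10.95. The overlap came from VD replicate 9 at the bottom of its group, and 4 CSD pups lay below all VD pups. The difference was -0.18 with a standard error of 0.05 (limma adjusted p = 0.0902). It passed without VD replicate 9, at -0.21, and without sex in the model, at -0.18. For Spry2 and Spry4, inhibitors of the same pathway, the 95% confidence intervals of the difference ran from -0.07 to 0.11 and from -0.19 to 0.19. Spry3 was above background on 0 arrays. The 3 Spred genes, which bind the Ras inactivator neurofibromin, had estimates above 0, at 0.05, 0.04 and 0.03 for Spred1, Spred2 and Spred3. For Spred3 the medians were 6.50 in CSD and 6.51 in VD pups, CSD replicate 5 stood apart at 7.20, and the difference was above 0 in 30 of 38 alternatives. The 3 probes of Spred2 pointed different ways, at -0.18, 0.28 and 0.09, so their average hides a disagreement.

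Spry1, Spry2, Dusp8 and Dusp10 are reported targets of the microRNA mir-21, which is known to rise in gut inflammation. The mature sequence is shown for its seed, bases 2 to 8, in capitals. RefSeq places it at chr11:86584120-86584141 on the minus strand of GRCm38.p6.
mmu-miR-21a-5p: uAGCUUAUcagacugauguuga
Of 16 reported target genes measured, 1 passed, beside 1.25% of all genes, and it was Dusp8, lower in CSD pups. That call was lost with the marked spot kept and in the deposited matrix, as given above. In all 10 had a lower and 6 a higher estimate, with a median difference of -0.01, and the microRNA itself was not measured here.

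The wider pathway was described by 9 lists with 135 measured genes besides the 31. In limma 3 of the 135 passed, which is 2.22% beside 1.25% of all genes. At an unadjusted p under 0.05 there were 37, which is 27.4% beside 14.5% of all genes. In all 68 had a higher and 67 a lower estimate in CSD pups. Most of the 135 were well above background on every array. The shares over all genes, here and elsewhere, also count genes that were not, so the sets compared differ in detection. Myc, a growth-promoting transcription factor downstream of ERK, rose. It was lowest at 8.46 and median 8.54 in CSD pups and median 8.20 and highest at 8.34 in VD pups, so the groups did not overlap. Its difference was 0.33 (limma adjusted p = 0.00254). Rps6ka4, a kinase activated by p38 and ERK, fell, from a VD median of 11.09 to a CSD median of 10.94, with no overlap and a difference of -0.18 (limma adjusted p = 0.0195). Mef2c, a transcription factor that p38 and ERK5 activate, fell by 0.29 on the log2 scale (limma adjusted p = 0.0449), also with no overlap. With litter means as samples, with males only and on slide 2 alone 0 of all genes passed, so these 3 calls were lost there. None of the 16 ligands, the 17 receptor tyrosine kinases, the 13 genes of Ras activation, the 15 of the Raf-MEK-ERK cascade, the 19 of the JNK cascade or the 19 other inhibitors passed. At an unadjusted p under 0.05 they held 0, 3, 6, 4, 7 and 5 genes. For each list the 2 genes with the smallest p are given. Among receptors these were Erbb4, the neuregulin receptor, at -0.15 (limma adjusted p = 0.0542) and Pdgfrb, a receptor of mesenchymal cells, at -0.15. In Ras activation they were Nras at 0.14 and the exchange factor Sos2 at 0.15 (limma adjusted p = 0.0638 and 0.0678). In the ERK cascade the kinase Rps6ka3 differed by 0.10 and Mapk3, which encodes ERK1, by -0.15. In the JNK cascade the scaffold Mapk8ip1 differed by -0.19 and the kinase Map2k4 by 0.23 (limma adjusted p = 0.0691 and 0.0961). Among other inhibitors the tyrosine phosphatase Ptpn7 differed by -0.16 and the ubiquitin ligase Cbl by 0.14 (limma adjusted p = 0.0618 and 0.0737). The ligands Nrg1 and Egf differed by 0.08 and -0.14 and missed an unadjusted p of 0.05.

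ERK target genes differed in their spread between pups, which was wide for Egr1 and Fos and narrow for Myc and Etv5. Of the 15, 10 had a lower and 5 a higher estimate in CSD pups, beside 48.3% of all genes below 0. In limma 1 passed and 6 reached an unadjusted p under 0.05, beside 1.25% and 14.5% of all genes. Apart from Myc the 5 were Egr1, Fos, Fosb, Egr3 and Junb, all with lower estimates in CSD pups. Egr1 was lowest at 8.87, median 9.01 and highest at 10.45 in CSD pups. In VD pups it was lowest at 9.58, median 10.30 and highest at 11.52. Of the 8 CSD pups, 7 lay below every VD pup, and CSD replicate 8 alone overlapped. The difference was -0.98 (limma adjusted p = 0.122). For Fos the CSD pups ranged from 11.40 to 13.51 and the VD pups from 12.22 to 14.13, with a difference of -0.84 (limma adjusted p = 0.264). Both differences were larger in size than those of Dusp11 and Dusp8 and did not pass, and the SD within a group was between 0.54 and 0.72 for these 2 genes.

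**Figure D4:**
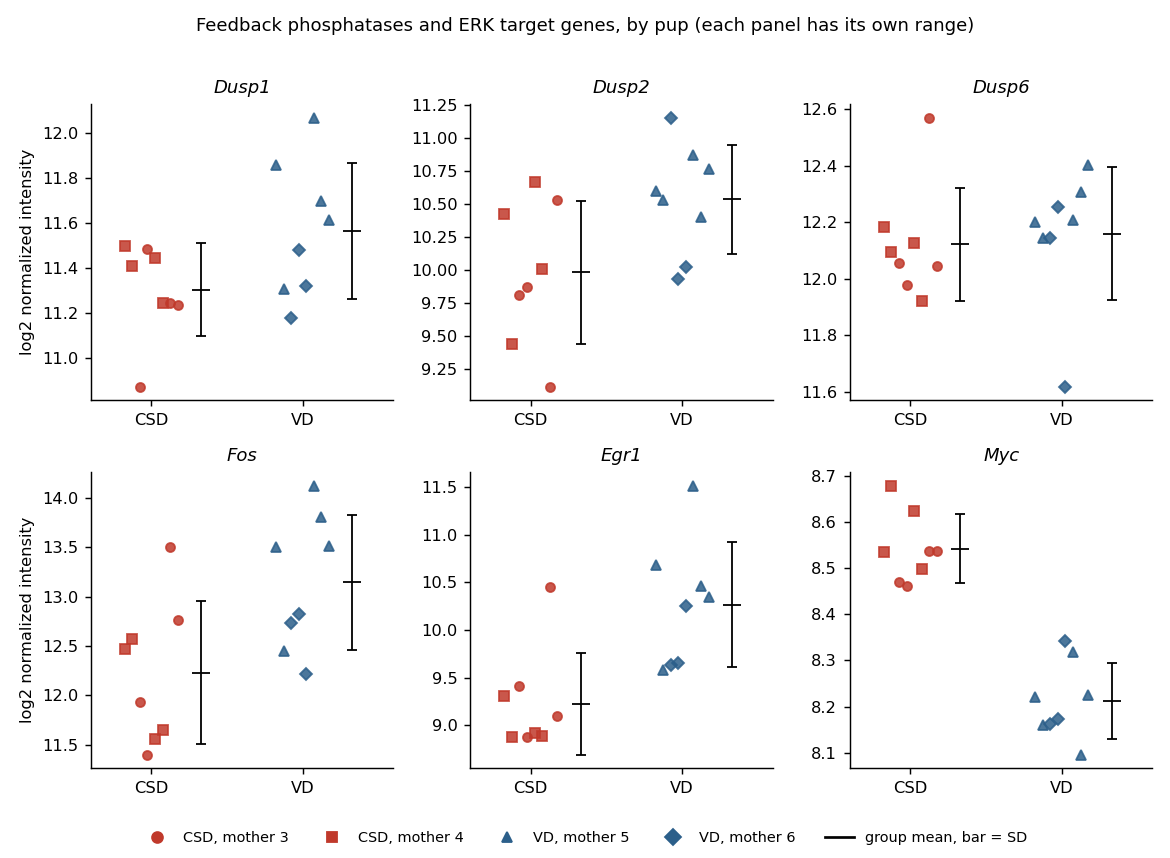
Log2 normalized intensity (y axis) of 3 feedback phosphatases and 3 ERK target genes by delivery mode, with 1 point per pup, the litter as the symbol and the mean with its SD beside each group. Myc separates the groups, at 8.46 and above in CSD pups and 8.34 and below in VD pups, whereas the pups of Dusp1, Dusp2, Dusp6, Fos and Egr1 overlap.

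Sex and litter were examined in the same 16 pups. In the VD group they are partly confounded, since both females came from mother 5 and the pups of mother 6 were all male. Between females and males 0 of the 31 genes passed in limma, against 0.0599% of all genes, and 2 had an unadjusted p under 0.05, against 6.45% of all. Dusp10 was the nearer, with a female minus male difference of -0.24 (limma adjusted p = 0.518). For the interaction of delivery mode and sex, 0 of the 31 passed, against 0.00272% of all genes, and 4 had an unadjusted p under 0.05, against 4.72%. Dusp4 was among these 4, with a CSD minus VD difference in females minus that in males of -0.44 (limma adjusted p = 0.981). The interaction rests on 2 VD females of 1 litter. Between mothers 3 and 4, 0 of the 31 passed, against 0.123%, and 4 reached an unadjusted p under 0.05, against 6.21%. Those 4 were Dusp4, higher in pups of mother 4 by 0.17, and Dusp5, Dusp13 and Spry4, lower there, at -0.33, -0.27 and -0.25. Their limma adjusted p was 0.725, 0.742, 0.725 and 0.753, and Dusp13 was well above background on only 2 CSD arrays. Between mothers 5 and 6, 0 passed, against 0.433%, and 3 reached an unadjusted p under 0.05, against 11.9%. Those 3 were Dusp1 at -0.47 and Dusp5 at -0.26, lower in pups of mother 6, and Dusp23, higher there by 0.31 (limma adjusted p = 0.336, 0.191 and 0.143).

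**Figure D5:**
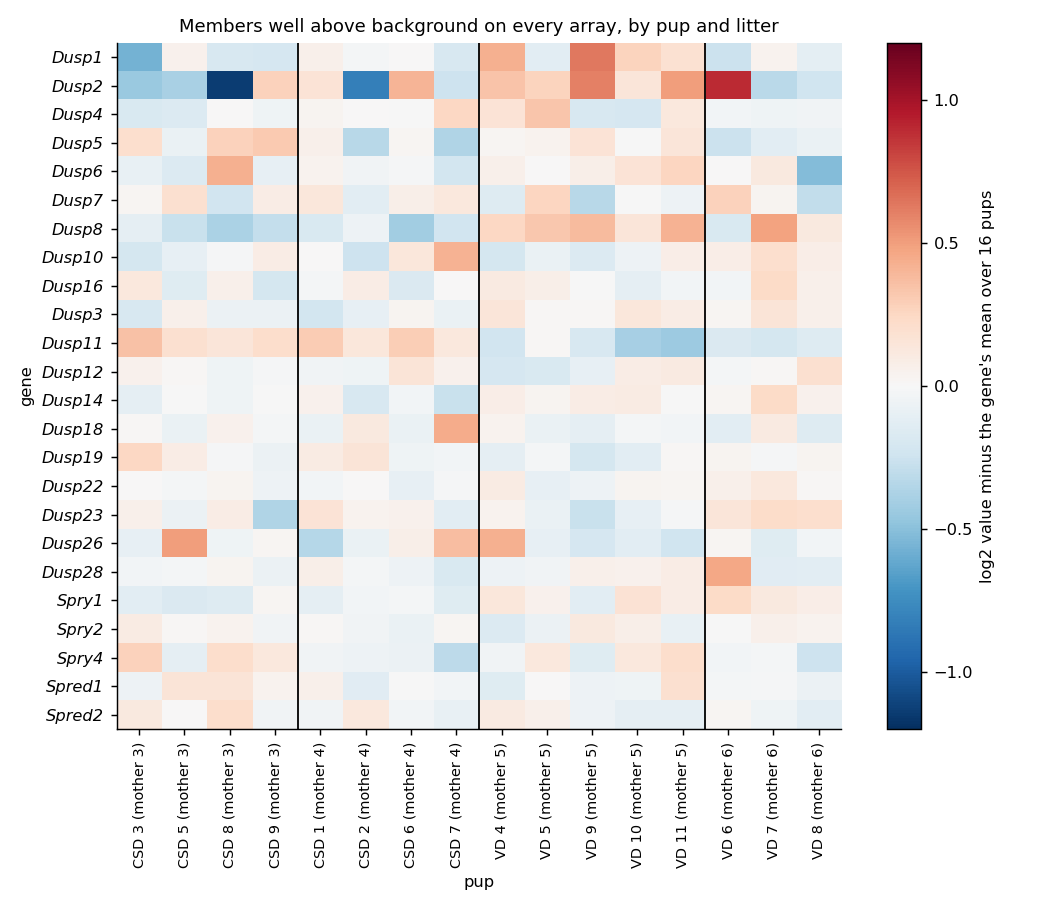
Deviation of each pup (x axis, ordered by mother, with lines between litters) from the gene's mean over the 16 pups, in log2 units, for the 24 genes well above background on every array (y axis). The rows of Dusp11 and Dusp8 change colour at the border between CSD and VD litters, apart from VD replicate 6 in Dusp8 and VD replicate 5 in Dusp11, which stand near their gene's mean or beyond it.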

How the data were processed

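The authors scanned 1-colour arrays with Agilent Feature Extraction, and the deposited scanner output holds each spot's intensity. The authors' matrix holds log2 values per gene after limma 3.38, and was used as an alternative, since it is deposited. Here the mean intensity was corrected with the local background (normexp, offset 50), control spots and spots marked as outliers were left out, and arrays were quantile normalized in limma 3.58.1. Probes above the 5% quantile on at least 4 arrays were kept and averaged per gene. The model held delivery mode and sex, with the mother as a random effect (correlation 0.02), and p-values were adjusted by Benjamini-Hochberg at 5%. The fit was tested on simulated data without and with a correlation between pups of a litter, with litters nested in delivery mode each time. There more false calls were made than the adjusted p allows, and neither setting used the correlation found in these data. Alternatives changed background correction, scaling, filter, covariates, slides and pups. Values are given for the members that passed, the 4 next by p, and the genes that passed in each pathway list or otherwise its 2 smallest p. Members and lists were chosen with earlier results of these data known. The motifs, the marked spot, the markers set beside Dusp2 and Dusp8 and the ERK targets besides Myc were chosen after the values were seen.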

Additional observations from a re-analysis of the deposited data

Results flagged for a closer look

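Within the groups of 8 pups, 11 of the 62 groups (31 genes in 2 delivery modes) had a pup far from its neighbour by Dixon's test, where chance flags about 5% of groups. In CSD pups these were Dusp1 in replicate 3, the lowest at 10.87, and the highest values of Dusp6 in replicate 8 at 12.57, Dusp15 in replicate 8 at 6.26, Dusp18 in replicate 7 at 7.49 and Spred3 in replicate 5 at 7.20. In VD pups the highest values were Dusp14 in replicate 7 at 8.88, Dusp26 in replicate 4 at 9.21, Dusp28 in replicate 6 at 9.76 and Spred1 in replicate 11 at 9.14. The lowest in VD pups were Dusp6 in replicate 8 at 11.62 and Spred3 in replicate 11 at 6.42. Neither Dusp11 nor Dusp8 had such a pup.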

How the results depend on the processing

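The 6 genes with an unadjusted p under 0.05 kept their direction in all 38 alternatives. Dusp11 passed in 34, with differences from 0.37 to 0.47, and Dusp8 in 29, from -0.58 to -0.37. Dusp11 missed the threshold with litter means, with males only and on each slide alone. Dusp8 missed it in those, with marked spots kept, in the deposited matrix and without the litter of mother 3, 4 or 5. Of the 31 genes, 1 passed in the deposited matrix, 4 without sex in the model, 0 with litter means, with males only, on slide 1 and on slide 2, and 1 with marked spots kept (an alternative chosen after seeing the data) and without the litter of mother 3, 4 or 5. Where 0 passed in limma, 6 of the 31 had an unadjusted p under 0.05 in each. Without 1 pup at a time, 2 to 3 of the 31 and 145 to 617 of all genes passed, with the lowest number without VD replicate 4. Of all genes, 460 passed, 259 higher and 201 lower. The number was 243 with an offset of 16, 177 with the scanner's corrected intensity and quantiles and 169 with its 75th percentile (78 higher and 91 lower). It was 170 in the deposited matrix, 992 without sex, 0 with litter means, 0 with males only, 12 on slide 1 and 0 on slide 2. Where it was 0, 4034, 3295 and 3790 genes had an unadjusted p under 0.05. It was 212, 138, 189 and 2265 without the litters of mothers 3, 4, 5 and 6. Settings with litter means, males or 1 slide hold fewer samples, as does that without the litter of mother 6, where more genes passed. The cause of these changes was not tested.

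The replicate numbers in the labels did not pair the pups, since deviations of the 5 shared numbers correlated at -0.05 to 0.22 and 2 of 5 were over 0.1. With the replicate block and no mother 697 genes and 2 of the 31 passed. The precision is that of 16 arrays from 4 litters, and 3 of the 31 genes were above background on no array. Of these Spry3 passed in 1 alternative, without the litter of mother 6, where 3 of the 31 passed.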

Other observations

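The 15 ERK target genes were not spread evenly over the pups. VD replicate 9 was the highest VD pup for 11 of the 15, and also for Dusp1, while it was the lowest VD pup for Spry1. CSD replicate 8 was the highest CSD pup for 6 of the 15, and also for Dusp6, while it was the lowest CSD pup for Dusp2. These counts were made after the values were seen and carry no test.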
